A study of Homo sapiens with 6 samples.

Results

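Cholesterol and fatty acids are built by enzymes many of whose genes answer together to the membrane's sterol content. This account follows 32 such genes, chosen by symbol: the enzymes from acetyl-CoA to cholesterol, the SREBP transcription factors and their partners, 3 genes of sterol transport, and the fatty acid branch. Of the 32, 30 had a probeset with 1 gene symbol, out of 18404 genes so measured; FDFT1 and HSD17B7 had none under that rule and are left out, save for 1 shared HSD17B7 probeset given below. Where a gene had several probesets, the one with the highest mean over the 6 arrays was used. The members are 16 sterol synthesis enzymes, 4 genes of the SREBP system, 3 sterol transport genes and 7 genes of the fatty acid branch.

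The arrays came from 2 groups of 3. The first is the FHA-TRIM71 line, HEK293 Flp-In cells that constitutively express TRIM71, an RNA-binding TRIM-NHL protein, with a FLAG-HA tag. The second is the parental HEK293 Flp-In line, labelled wild-type. HEK293 is an established line of human embryonic kidney origin, and Flp-In cells hold a recombination site for a transgene. Both grew in DMEM with glutamine and fetal calf serum. Only for the TRIM71 lines do the labels add hygromycin B to the medium, so transgene, drug and any other difference between the lines cannot be told apart. The labels give neither the promoter of the transgene nor whether the line is 1 clone, and call the arrays triplicates without naming separate cultures. The p-values therefore reflect the spread among these 3 arrays a group, and that spread may be technical.

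In the sterol pathway, acetyl-CoA units are joined to mevalonate, turned into isoprenoids, condensed to squalene, closed into lanosterol and trimmed to cholesterol. When sterols are scarce, the escort protein SCAP carries SREBP precursors from the endoplasmic reticulum to the Golgi, where a pair of proteases release the active factor. INSIG proteins hold SCAP back when sterols are plentiful. SREBP-2 is best known for driving sterol genes and SREBP-1 for driving fatty acid genes, with NF-Y and Sp1 as common partners at the promoters. SREBPs bind the sterol regulatory element. When oxysterols rise, LXR receptors raise exporters such as ABCA1.

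Promoter windows from RefSeq (GRCh38.p14), 250 bases before to 50 bases after the annotated start, were found for 27 of the 30 measured genes, all but ACAT2, SQLE and FASN. They were searched on both strands for the classic sterol regulatory element (SRE-1), for its core TCACNCCA, which lies inside it, and for CCAAT (NF-Y), GGGCGG (Sp1) and CACGTG (E-box). A match is a description of these letters and not evidence of binding. CCAAT was found in 11 of 14 sterol enzyme promoters (78.6%) and in 1 of 6 of the fatty acid branch (16.7%), against 36.3% of the 14230 promoters of measured genes. Within the sterol enzymes it was present in 3 of 4 that fell and in 8 of 10 that did not pass the test. GGGCGG was in 25 of 27 members (92.6%), against 60.0% of promoters of measured genes, and CACGTG was in 5 of 27 (18.5%), against 8.88%. The sterol core was in 3 of 27 (11.1%), against 3.68%, and the whole SRE-1 only in SREBF2 (1 of 27, or 3.70%, against 0.13%). Over all 27305 promoters of the table the shares were 35.7% for CCAAT, 44.6% for GGGCGG, 7.43% for CACGTG, 3.93% for the core and 0.15% for SRE-1.

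Of the windows, 5 are shown to set these letters beside the changes below: SREBF2, which holds SRE-1, at chr22:41832855-41833154 (+ strand); EBP and DHCR7, sterol enzymes that fell, at chrX:48521558-48521857 (+ strand) and chr11:71448344-71448643 (- strand); MSMO1, a sterol enzyme higher on every TRIM71 array without a call, at chr4:165327419-165327718 (+ strand); and ELOVL6, the fatty acid gene that rose by the widest margin of the members, at chr4:110198566-110198865 (- strand). They run 5′ to 3′ on the strand of the gene, and capitals mark SRE-1 or its core and CCAAT or its reverse complement ATTGG.
SREBF2: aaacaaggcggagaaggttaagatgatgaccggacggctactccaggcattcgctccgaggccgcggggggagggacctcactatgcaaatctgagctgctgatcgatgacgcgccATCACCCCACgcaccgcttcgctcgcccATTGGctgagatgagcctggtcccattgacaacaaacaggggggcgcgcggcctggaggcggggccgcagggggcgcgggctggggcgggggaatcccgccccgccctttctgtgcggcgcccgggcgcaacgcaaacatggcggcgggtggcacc
EBP: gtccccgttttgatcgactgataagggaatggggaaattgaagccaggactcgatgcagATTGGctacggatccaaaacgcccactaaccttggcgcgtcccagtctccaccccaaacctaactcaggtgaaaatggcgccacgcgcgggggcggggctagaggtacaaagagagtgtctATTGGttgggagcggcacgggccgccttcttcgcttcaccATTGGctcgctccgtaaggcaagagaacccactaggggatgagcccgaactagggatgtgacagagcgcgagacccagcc
DHCR7: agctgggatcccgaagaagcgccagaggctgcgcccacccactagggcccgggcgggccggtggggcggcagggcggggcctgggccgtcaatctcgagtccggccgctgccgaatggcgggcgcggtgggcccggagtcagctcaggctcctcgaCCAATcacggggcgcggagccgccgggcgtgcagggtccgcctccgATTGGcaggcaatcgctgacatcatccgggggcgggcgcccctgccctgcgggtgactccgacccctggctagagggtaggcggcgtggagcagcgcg
MSMO1: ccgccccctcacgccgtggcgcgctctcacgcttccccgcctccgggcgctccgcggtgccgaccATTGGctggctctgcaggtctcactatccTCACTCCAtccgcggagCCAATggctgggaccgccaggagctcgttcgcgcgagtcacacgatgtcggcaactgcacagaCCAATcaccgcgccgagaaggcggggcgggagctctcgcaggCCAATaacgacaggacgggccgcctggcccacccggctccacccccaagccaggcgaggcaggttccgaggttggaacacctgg
ELOVL6: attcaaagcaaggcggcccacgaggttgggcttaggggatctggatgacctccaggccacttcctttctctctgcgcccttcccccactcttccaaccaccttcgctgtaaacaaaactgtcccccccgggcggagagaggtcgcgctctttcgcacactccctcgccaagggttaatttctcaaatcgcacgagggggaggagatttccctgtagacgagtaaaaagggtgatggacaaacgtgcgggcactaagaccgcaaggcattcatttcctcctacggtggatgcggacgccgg
EBP holds 3 ATTGG boxes and DHCR7 a CCAAT and an ATTGG box. MSMO1 holds 4 such boxes and the sterol core, and SREBF2 1 box and SRE-1. ELOVL6 holds none of these.

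The labels were first checked on TRIM71 itself, whose log2 expression was 10.63, 10.86 and 10.72 on the TRIM71 arrays, against 7.23, 7.54 and 7.44 on the parental arrays (a log2 difference of 3.33, SE 0.10, adjusted p = 6.8e-05). Values throughout are the deposited RMA log2 expression values; each fold change is the TRIM71 line over the parental line, and each adjusted p comes from limma over all 32321 probesets with Benjamini-Hochberg adjustment, with a call under 0.05. Of 7 genes known from HEK293 cells, some were bright on both groups of arrays. VIM had means of 11.51 in the TRIM71 line and 11.11 in the parental line, and KRT18 had means of 10.20 and 10.25. Others were not bright: NEFM was below the median of all probesets (means 6.26 in the TRIM71 line and 6.54 in the parental line). PAX2 (7.36 and 7.15, in the same order) and LHX1 (7.36 and 7.07) were little above it. Of markers of liver and fat cells, which make much lipid, 0 of 6 hepatocyte and 0 of 5 adipocyte genes were called, and their group means lay between 3.55 and 6.81, where the median of all probesets was 6.95. Of 4 measured leukocyte and 5 fibroblast or endothelial markers, 0 were called. At an unadjusted p under 0.05 these 4 lists held 1 gene, COL1A1, lower in the TRIM71 line. Its means, 7.47 in the TRIM71 line and 7.66 in the parental line, were above the median of all probesets. Of the 7 HEK293 genes, VIM and LHX1 rose and KRT8 and NEFL fell, NEFL with means of 10.96 in the TRIM71 line and 12.41 in the parental line; their part in the results was not tested.

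In the TRIM71 line, 8 of the 30 genes fell and 4 rose, while 18 did not pass the test. Over all genes tested, 12.2% fell, 10.0% rose and 22.2% were called in either direction. Of the members 26.7% fell, 13.3% rose, a share near that of all genes, and 40.0% were called. All genes include those on dim probesets, whereas every member but ABCA1 had a mean at or above the median of all probesets. These shares are thus not matched for brightness. The falls lay in sterol synthesis (SQLE, FDPS, DHCR7, IDI1 and EBP), the SREBP system (INSIG1 and SREBF1) and the desaturase FADS2. The rises were ELOVL6 and ACACA of the fatty acid branch and ABCA1 and NPC1 of sterol transport. Changes were small: ELOVL6 alone passed 1.5-fold, a size that 3.97% of all genes reached with a call. Without parental replicate 3 the falls were 4 members (13.3%), beside 8.58% of all genes, and without TRIM71 replicate 1 they were also 4, beside 7.26%. They were 5 (16.7%) without parental replicate 1 or 2, beside 9.22% and 7.42% of all genes. In bulk RNA, fewer cells expressing a gene and less RNA per cell cannot be told apart.

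**Figure D1:**
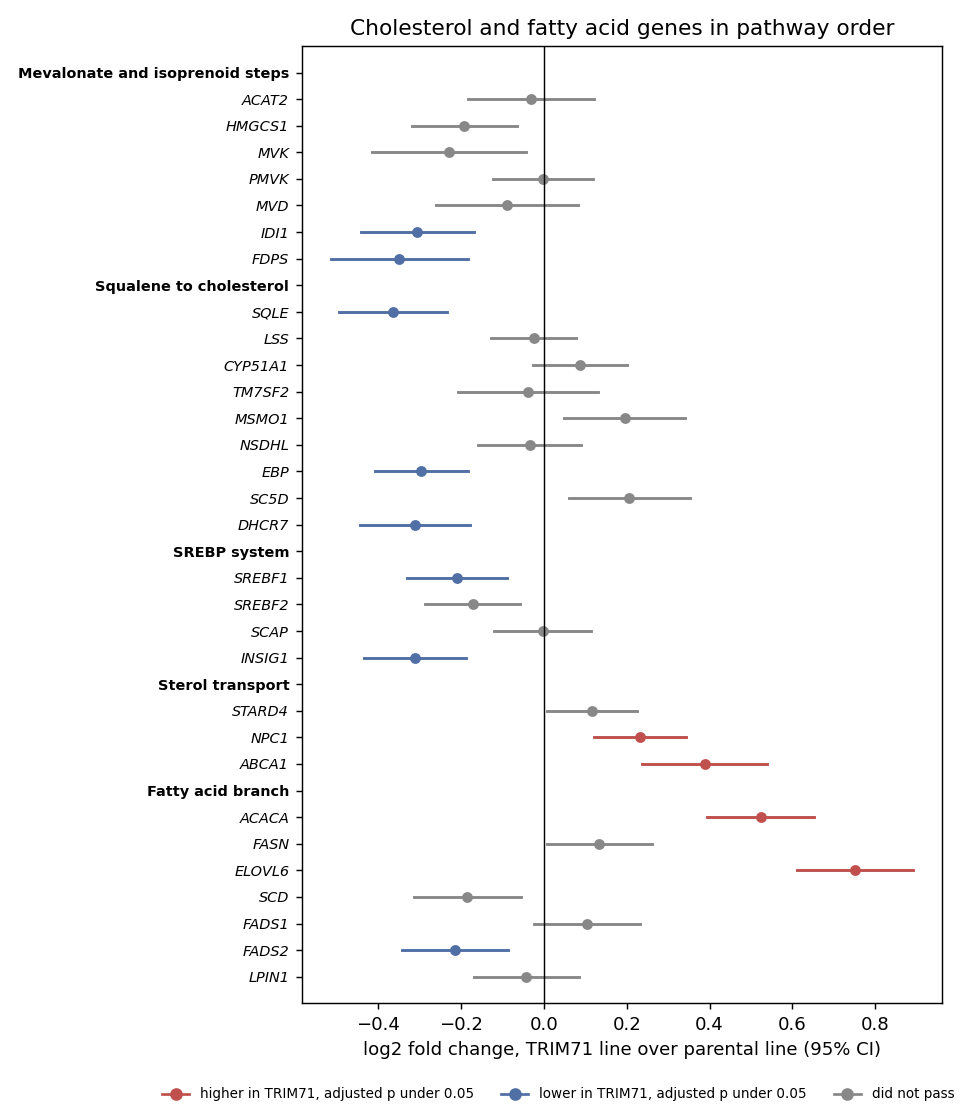
Log2 fold change of each of the 30 genes, TRIM71 line over parental line (x axis), with its 95% confidence interval from limma, in pathway order down the page; red and blue mark genes called higher and lower. The 5 called sterol enzymes sit between -0.37 and -0.30, and the rises belong to transport and to ACACA and ELOVL6.

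The first enzymes of the sterol pathway showed no call. ACAT2, which joins acetyl-CoA units, differed by -0.03 on the log2 scale (95% CI -0.18 to 0.12), and the groups overlapped. HMGCS1, which makes HMG-CoA, had 10.26, 10.30 and 10.31 on the TRIM71 arrays, against 10.44, 10.44 and 10.56 on the parental arrays. All its TRIM71 values were the lower ones, but the difference just missed the threshold (-0.19, SE 0.05, adjusted p = 0.0542). The mevalonate kinase MVK was placed alike (-0.23, 95% CI -0.41 to -0.04, adjusted p = 0.0987). PMVK and MVD, which phosphorylate and decarboxylate the product, overlapped between the groups, with intervals of -0.12 to 0.12 and -0.26 to 0.08.

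Both enzymes of the isoprenoid steps that follow fell. IDI1, the isopentenyl diphosphate isomerase, had 10.52, 10.53 and 10.46 on the TRIM71 arrays, against 10.86, 10.72 and 10.85 on the parental arrays. Every TRIM71 value lay below every parental one, and the mean differed by -0.31 (SE 0.06, adjusted p = 0.0149). FDPS, which makes farnesyl diphosphate, had 8.91, 9.05 and 8.83 in the TRIM71 line, against 9.28, 9.23 and 9.33 in the parental line (-0.35, SE 0.07, adjusted p = 0.0183). Its TRIM71 arrays were again all lower and spread more widely than the parental ones. A pair of probesets shared by FDPS and its pseudogene FDPSP2 gave differences of -0.19 (adjusted p = 0.0873) and -0.13 (adjusted p = 0.4857). Leaving out parental replicate 3 ended the IDI1 call (adjusted p = 0.0541), as did leaving out TRIM71 replicate 1 (0.0526), and the FDPS call was lost without any one of the parental arrays (0.0510 to 0.0631) or without TRIM71 replicate 1 (0.0692).

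SQLE, squalene epoxidase, a rate-limiting enzyme of sterol synthesis, fell by the most among the sterol enzymes. It had 10.61, 10.66 and 10.59 on the TRIM71 arrays, against 11.04, 10.91 and 11.01 on the parental arrays, which do not overlap. The difference was -0.37, or 1.29-fold higher in the parental line (SE 0.05, adjusted p = 0.0069). LSS, the next enzyme, which closes the rings of lanosterol, was not called: it had means of 9.31 ± 0.01 in the TRIM71 line and 9.34 ± 0.02 in the parental line (SD, n = 3 each), with an interval of -0.13 to 0.08.

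Past lanosterol, the members parted. EBP, the sterol isomerase, had 9.61, 9.66 and 9.59 in the TRIM71 line, against 9.92, 9.94 and 9.89 in the parental line (-0.30, SE 0.05, adjusted p = 0.0088). DHCR7, the reductase that makes cholesterol in the last step of one route, had 10.14, 10.20 and 10.09 in the TRIM71 line, against 10.45, 10.40 and 10.51 in the parental line (-0.31, SE 0.05, adjusted p = 0.0125). Both were lower on each TRIM71 array than on any parental array. SC5D, the desaturase that acts between these 2 enzymes, had 11.60, 11.52 and 11.51 in the TRIM71 line, against 11.43, 11.27 and 11.30 in the parental line. Its TRIM71 arrays were all higher, without passing the test (0.21, 95% CI 0.06 to 0.35, adjusted p = 0.0682).

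MSMO1, the sterol C4-methyl oxidase, stood likewise at 10.94, 10.91 and 10.81 in the TRIM71 line, against 10.77, 10.63 and 10.67 in the parental line (0.20, 95% CI 0.05 to 0.34, adjusted p = 0.0803). CYP51A1, the lanosterol demethylase, was higher on each TRIM71 array by a small margin (0.09, adjusted p = 0.2910), and its second probeset overlapped between the groups (adjusted p = 0.9905). TM7SF2, a sterol reductase, and NSDHL, which works beside MSMO1, overlapped, with intervals of -0.21 to 0.13 and -0.16 to 0.09. A probeset shared by HSD17B7 and a pseudogene, HSD17B7P2, did not pass either (-0.03, adjusted p = 0.7748).

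As a group, 5 of 16 sterol enzymes fell (31.2%, beside 12.2% of all genes), 0 rose in this limma test (beside 10.0%) and 11 did not pass. At an unadjusted p under 0.05, 7 were lower and 2 higher, with no share of all genes at that threshold to set beside them. Of the 16, 13 had a negative and 3 a positive fold change. Their median was -0.06, against -0.01 over all genes, of which 53.9% were negative. Split at FDPS, all 7 enzymes up to FDPS were negative (median -0.19), and of the 9 from squalene onward 6 were negative and 3 positive (median -0.03). Of those 7, 2 were called, and PMVK (-0.0014) and ACAT2 (-0.03) were near 0 and changed direction in some fits with 1 array left out. The group median came to -0.03 without parental replicate 3 and -0.10 without parental replicate 1 or TRIM71 replicate 3.

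**Figure D2:**
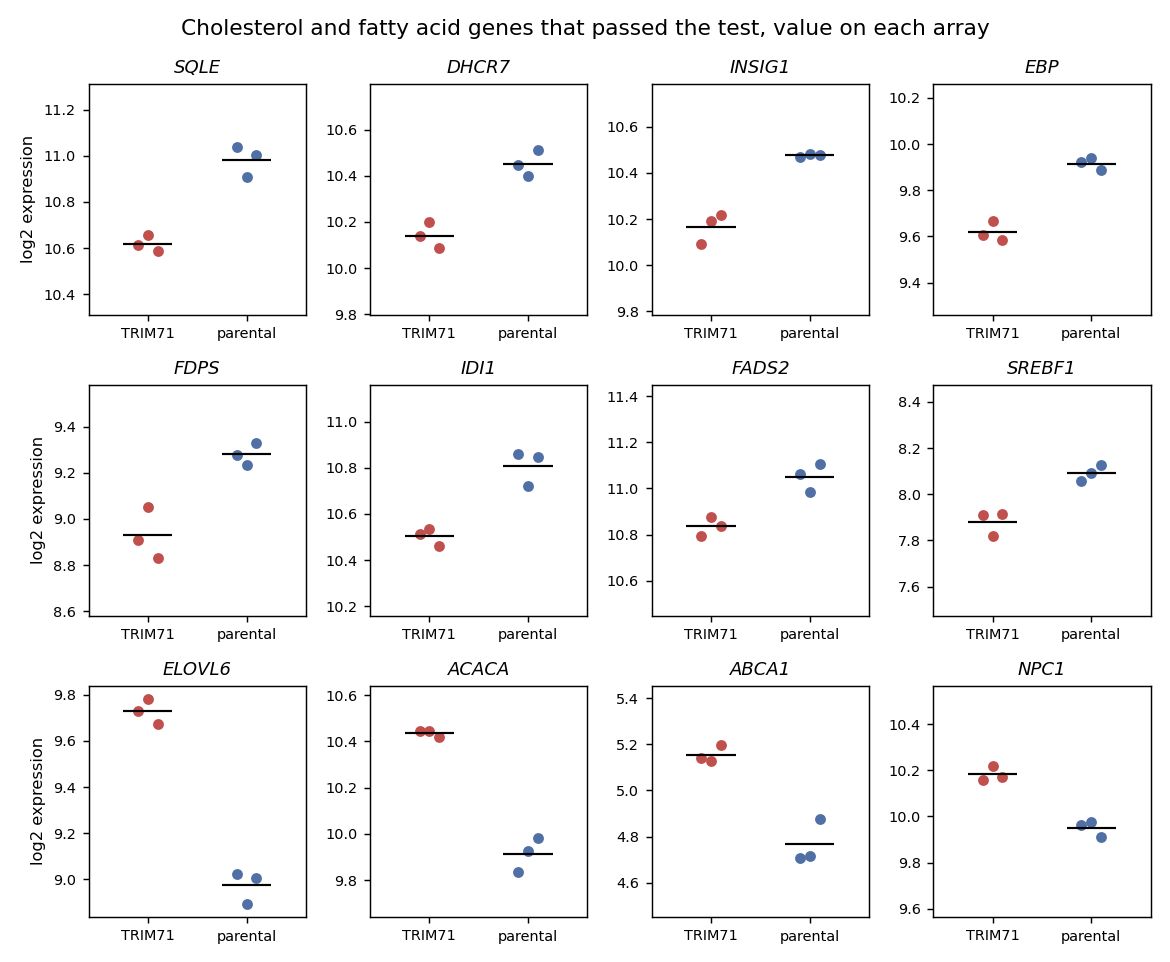
Log2 expression (y axis, each panel spanning 1 log2 unit) of the 12 called genes on each array, TRIM71 arrays at left in red and parental arrays at right in blue, with bars at group means (n = 3). The groups do not overlap in any panel, which the choice of called genes favours, and over all genes 43.6% do not overlap. The 8 genes of the upper rows are lower and the 4 of the bottom row higher in the TRIM71 line.

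Of the 4 genes of the SREBP system 2 fell (50.0%, beside 12.2% of all genes) and 2 did not pass. Their median was -0.19. INSIG1, the sterol-sensing retention protein and itself a target of SREBP, had 10.09, 10.19 and 10.22 on the TRIM71 arrays, against 10.47, 10.48 and 10.48 on the parental arrays. The parental arrays were nearly identical and the TRIM71 arrays all below them (-0.31, SE 0.05, adjusted p = 0.0099). SREBF1, which encodes SREBP-1, had 7.91, 7.82 and 7.91 in the TRIM71 line, against 8.06, 8.09 and 8.13 in the parental line (-0.21, SE 0.05, adjusted p = 0.0364). That call ended with any 1 array left out (adjusted p between 0.0608 and 0.1094). SREBF2, which encodes SREBP-2, had 9.05, 9.09 and 9.12 in the TRIM71 line, against 9.23, 9.30 and 9.24 in the parental line, a gap that just missed the threshold (-0.17, SE 0.05, adjusted p = 0.0573). SCAP, their escort, stood at 9.30 ± 0.05 in the TRIM71 line and 9.31 ± 0.03 in the parental line (SD, n = 3 each), with an interval of -0.12 to 0.11.

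The proteases that release SREBPs in the Golgi, which are not among the 32 genes, fell further than any member did. MBTPS1, site-1 protease, had 9.95, 10.02 and 9.99 in the TRIM71 line, against 10.49, 10.50 and 10.52 in the parental line (-0.52, SE 0.04, adjusted p = 0.0012). MBTPS2, site-2 protease, had 10.50, 10.54 and 10.54 in the TRIM71 line, against 11.00, 10.98 and 10.98 in the parental line (-0.46, SE 0.04, adjusted p = 0.0015). Both enzymes also cut other membrane-bound factors. INSIG2, the relative of INSIG1, overlapped between the groups (-0.14, adjusted p = 0.3890). Of 12 measured further regulators, 3 fell and 1 rose (33.3% called, beside 22.2% of all genes). NFYA, the DNA-contacting subunit of NF-Y, rose (0.39, adjusted p = 0.0053). Its partner subunits NFYB (-0.17, adjusted p = 0.1904) and NFYC (-0.11, adjusted p = 0.1892) did not pass, with every TRIM71 array below the parental ones. MLXIPL, the carbohydrate-responsive factor ChREBP, fell (-0.41, adjusted p = 0.0124; 0.0515 without TRIM71 replicate 1).

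Of the 3 sterol transport genes, 2 rose (66.7%, beside 10.0% of all genes) and 1 did not pass. Their median was 0.23. ABCA1, the exporter of cholesterol to lipoproteins, had 5.14, 5.13 and 5.20 on the TRIM71 arrays, against 4.71, 4.72 and 4.88 on the parental arrays (0.39, SE 0.06, adjusted p = 0.0092). The groups were apart, but both were below the median of all probesets, within the 3.55 to 6.81 span of the liver and fat cell markers. At such levels log2 values can understate fold changes, and whether the probeset reads expressed ABCA1 RNA was not tested. NPC1, which moves cholesterol out of lysosomes, had 10.16, 10.22 and 10.17 in the TRIM71 line, against 9.96, 9.97 and 9.91 in the parental line (0.23, SE 0.05, adjusted p = 0.0196). Its call ended with any array but parental replicate 1 left out (adjusted p between 0.0534 and 0.0703) and with array medians set equal (0.0544). STARD4, a soluble sterol carrier, was higher on each TRIM71 array without passing (0.12, 95% CI 0.01 to 0.23, adjusted p = 0.1476).

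Of 13 further transport genes, 4 fell and 1 rose (38.5% called, beside 22.2% of all genes). ABCG1, an exporter that like ABCA1 is an LXR target, had 5.95, 6.06 and 5.97 in the TRIM71 line, against 6.30, 6.34 and 6.27 in the parental line (-0.31, SE 0.05, adjusted p = 0.0113; 0.0502 without parental replicate 2). It was thus lower where ABCA1 was higher, both on dim probesets. VLDLR, a lipoprotein receptor, fell by 0.67 on the log2 scale (adjusted p = 0.0023) and LIPA, the lysosomal acid lipase that frees cholesterol from esters, by 0.48 (adjusted p = 0.0083). OSBP, an oxysterol-binding protein named after its values were seen, fell by 0.23 (adjusted p = 0.0234), a call lost without any array but TRIM71 replicate 2 (0.0581 to 0.0837). GRAMD1B, which carries cholesterol from the plasma membrane to the endoplasmic reticulum, rose (0.44, adjusted p = 0.0091).

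In the fatty acid branch the largest change of all 30 members was found. ELOVL6, which lengthens palmitate to stearate, had 9.73, 9.78 and 9.67 on the TRIM71 arrays, against 9.03, 8.89 and 9.01 on the parental arrays. It was 1.68-fold higher in the TRIM71 line (0.75 on the log2 scale, SE 0.06, 95% CI 0.61 to 0.89, adjusted p = 0.00083), a gap many times the spread within either group. ACACA, acetyl-CoA carboxylase, which makes the malonyl-CoA that fatty acid synthesis and elongation use, had 10.45, 10.45 and 10.42 in the TRIM71 line, against 9.83, 9.92 and 9.98 in the parental line. It was 1.44-fold higher in the TRIM71 line (0.52, SE 0.05, adjusted p = 0.0020).

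FASN, the synthase that builds palmitate, had 10.72, 10.77 and 10.77 in the TRIM71 line, against 10.61, 10.56 and 10.69 in the parental line, higher on each TRIM71 array but without a call (0.13, 95% CI 0.01 to 0.26, adjusted p = 0.1491). SCD, the stearoyl-CoA desaturase, had 11.62, 11.66 and 11.62 in the TRIM71 line, against 11.89, 11.81 and 11.75 in the parental line. It was lower on each TRIM71 array and just missed the threshold (-0.19, SE 0.05, adjusted p = 0.0647). LPIN1, the phosphatidate phosphatase of glycerolipid synthesis, overlapped (-0.04, 95% CI -0.17 to 0.08).

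FADS1 and FADS2, the delta-5 and delta-6 desaturases of polyunsaturated fatty acid synthesis, are neighbours on chromosome 11 in the RefSeq gene order. FADS2 had 10.79, 10.87 and 10.84 in the TRIM71 line, against 11.06, 10.98 and 11.10 in the parental line (-0.21, SE 0.05, adjusted p = 0.0400). That call ended with any 1 array left out (adjusted p between 0.0611 and 0.1296) and with array medians set equal (0.0707). FADS1 had 11.34, 11.39 and 11.33 in the TRIM71 line, against 11.32, 11.20 and 11.22 in the parental line, a small lean the other way (0.10, 95% CI -0.02 to 0.23, adjusted p = 0.2610).

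In all, 2 of the 7 genes of the fatty acid branch rose (beside 10.0% of all genes), 1 fell (beside 12.2%) and 4 did not pass. The share called was 42.9%, beside 22.2% of all genes, and the median was 0.10. Measured on each array as the median over genes of the difference from the gene's parental mean, sterol enzymes stood at -0.13, -0.08 and -0.07 on the TRIM71 arrays, against 0.01, -0.04 and 0.03 on the parental arrays. The fatty acid branch stood at 0.09, 0.14 and 0.08 on the TRIM71 arrays, against 0.01, -0.05 and 0.03 on the parental arrays. The sterol branch minus the fatty acid branch came to -0.22, -0.22 and -0.15 in the TRIM71 line. The parental arrays centre near 0 by construction. The difference between the branch medians was -0.17, and it stayed between -0.23 (without parental replicate 1) and -0.11 (without parental replicate 3) with 1 array left out. It is a description, given without a test, because the genes were chosen with results known. Outside the members, the 8 further isoprenoid and sterol genes measured had a median of 0.04 and the 25 further fatty acid genes -0.02. The contrast is thus one of the member lists only. Within the fatty acid branch FADS2 and SCD were lower on the TRIM71 arrays, so the branch did not move as one.

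**Figure D3:**
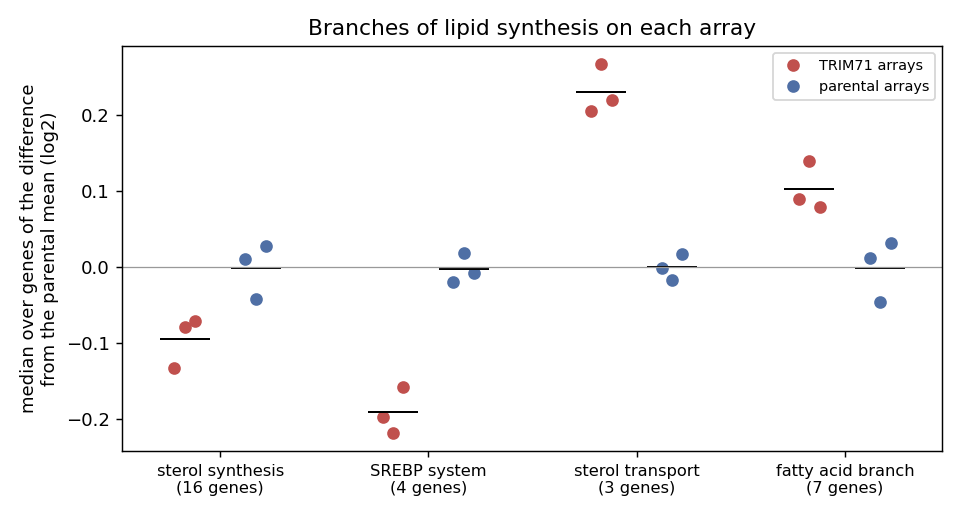
Median over the genes of each branch of the difference from the gene's parental mean (y axis, log2), with 1 point per array, TRIM71 arrays in red at left and parental arrays in blue at right, and bars at group means. Sterol synthesis and the SREBP system lie below 0 on all 3 TRIM71 arrays, and sterol transport and the fatty acid branch above 0.

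Relatives of the members, compared below as families after their values were seen, included 6 further elongases, of which 3 fell and 0 rose in the limma test (0 were higher at an unadjusted p under 0.05 either), where 12.2% of all genes fell and 10.0% rose, so a count of 0 rising is near the background. ELOVL2, which acts on long polyunsaturated fatty acids, had 10.15, 10.19 and 10.21 in the TRIM71 line, against 10.62, 10.61 and 10.54 in the parental line (-0.40, SE 0.05, adjusted p = 0.0035). ELOVL1 (-0.22, adjusted p = 0.0326) and ELOVL7 (-0.18, adjusted p = 0.0456) fell too, with calls that ended when any 1 array was left out (adjusted p between 0.0578 and 0.0974 for ELOVL1 and between 0.0851 and 0.1424 for ELOVL7) and when array medians were set equal (0.0698 for ELOVL1 and 0.0831 for ELOVL7). ELOVL3 (0.06), ELOVL4 (-0.10) and ELOVL5 (0.09) did not pass.

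FADS3, the third gene of the desaturase cluster, had 8.69, 8.84 and 8.74 in the TRIM71 line, against 8.39, 8.44 and 8.56 in the parental line (0.30, SE 0.07, adjusted p = 0.0291). Its call ended without any array but parental replicate 3 (adjusted p between 0.0566 and 0.0990). LPIN2 fell (-0.28, adjusted p = 0.0256; 0.0608 to 0.0910 without any array but parental replicate 2, and 0.0526 with array medians set equal), where LPIN1 and LPIN3 did not pass.

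Genes of acetyl-CoA supply did not all pass. SLC25A1, the carrier that exports citrate from mitochondria, had 10.42, 10.46 and 10.44 in the TRIM71 line, against 11.05, 11.08 and 11.09 in the parental line (-0.64, SE 0.04, adjusted p = 0.00057). ACLY, which splits that citrate, overlapped between the groups with an interval of -0.11 to 0.10. ACSS2, which makes acetyl-CoA from acetate, was higher (0.23, adjusted p = 0.0397; 0.0905 to 0.1160 without any array but parental replicate 2). Among enzymes that activate fatty acids, ACSL1 (-0.76, adjusted p = 0.0035) and ACSL6 (-0.28, adjusted p = 0.0092) fell, while ACSL4 rose (0.41, adjusted p = 0.0141; 0.0565 without parental replicate 2 and 0.0544 without TRIM71 replicate 2). Over the 25 further fatty acid genes measured, 8 fell and 3 rose (44.0% called, beside 22.2% of all genes). Of 8 further isoprenoid and sterol genes 0 were called by limma, and 0 had an unadjusted p under 0.05.

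**Figure D4:**
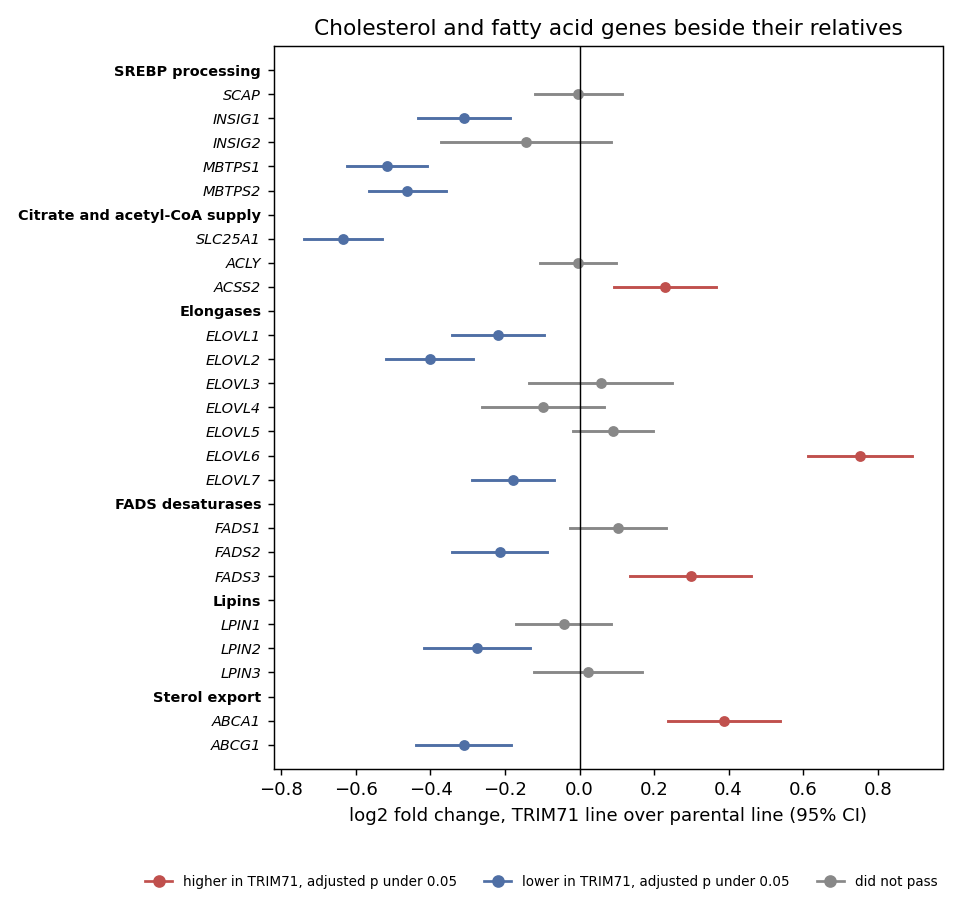
Log2 fold change with 95% confidence interval (x axis, TRIM71 line over parental line) for members and their relatives or partners, grouped down the page; red and blue mark calls. ELOVL6 is the only elongase called higher, and both SREBP proteases lie left of SCAP.

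The groups did not overlap in 23 of the 30 genes, with the TRIM71 arrays below in 13 and above in 10; over all genes 23.4% lay below, 20.2% above and 43.6% in either place. The typical size was a median absolute log2 fold change of 0.19 over the members, against 0.11 over all genes, which include those on dim probesets. SD within a group had a median of 0.05 over the members and reached 0.12.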

How the data were processed

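Total RNA was amplified to sense-strand cDNA and hybridised to 6 one-colour Affymetrix arrays, per the labels' protocols. The deposited log2 values were made by the authors' own processing, for which the submitters' processing notes list RMA and affy. No version or genome build is given in the sources used here. RMA makes the arrays' probe distributions equal, so a change in total mRNA per cell cannot be seen. Array medians were 6.90 to 6.97; 3 arrays per group limit the precision.

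The annotation table held 1 gene symbol for 19158 of 32321 probesets; 1388 had several and 11775 had none. Of the first, 19128 matched RefSeq (GRCh38.p14) by gene ID. Limma 3.58.1 (R 4.3.3) was run over all probesets with group as the single factor, without an intensity trend or filter. Confidence intervals are 95% intervals of that fit. Members, lists and tests were chosen with earlier results of these data known. The genes named are all members, TRIM71, and of each list of other pathway genes the called ones, at most 4 by adjusted p; other relatives, namely INSIG2, NFYB, NFYC, OSBP, the other elongases, FADS3, LPIN2, LPIN3, ACLY, ACSS2 and ACSL4, were chosen after their values were seen. The procedure was tested on simulated data. Alternatives were the variance prior, normalization, a filter on dim probesets, the choice of probeset, the replicate block and each array left out.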

Additional observations from a re-analysis of the deposited data

How the results depend on the processing

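Among the 12 called members, 6 (SQLE, EBP, INSIG1, ABCA1, ACACA and ELOVL6) were called under each of the 14 alternatives, ABCA1 under the 13 that kept its dim probeset. Members lower in the TRIM71 line numbered 4 to 6 and members higher 3 to 5 with 1 array left out, against 8 and 4 with all arrays. They numbered 11 and 6 with an intensity trend (robust or not), 10 and 5 with quantile normalization, 12 and 5 without dim probesets, 12 and 6 with 1 probeset per gene or the mean of its probesets, and 7 and 3 with array medians set equal. The shares of all genes moved too, from 12.2% lower and 10.0% higher in the main fit. They were 14.3% and 12.7% under the trend, 14.2% and 12.6% under the robust trend, and 13.4% and 10.3% with quantile normalization. With 1 probeset per gene they were 15.9% and 13.5%, with the mean 15.7% and 13.6%, and with array medians set equal 10.5% and 7.78%. Without dim probesets 2551 genes were lower and 2378 higher, more than in the main fit and out of fewer genes tested. Their shares were thus above 12.2% and 10.0%, and no exact share stands beside the 12 and 5 members. The replicate numbers did not pair the samples: deviations of same-numbered arrays from their group means correlated at 0.068, -0.188 and 0.108. With the replicate number as a block, 3 members were lower (10.0%, beside 7.45% of all genes) and 3 higher (10.0%, beside 5.54%). The share of members lower was thus near that of all genes in this fit. Over all genes 1371 were lower and 1019 higher, against 2244 and 1848 without the block. This fit has fewer residual degrees of freedom. The block ended the calls of IDI1 (adjusted p = 0.0586), FDPS (0.0670), DHCR7 (0.0595), SREBF1 (0.0938), NPC1 (0.0665) and FADS2 (0.1083), and of the other genes named, MLXIPL (0.0508), FADS3 (0.0651), ELOVL1 (0.1014), ELOVL7 (0.1142), ACSL4 (0.0529), LPIN2 (0.0844), ACSS2 (0.0910) and OSBP (0.0714); it changed no call of the other members. With 1 array left out, 1336 to 1709 genes were lower and 979 to 1485 higher, the sterol median lay between -0.10 and -0.0251, the fatty acid median between 0.08 and 0.13 and their difference between -0.23 and -0.11. HMGCS1, MSMO1, SC5D, SREBF2 and SCD passed with an intensity trend (adjusted p = 0.0152, 0.0286, 0.0211, 0.0248 and 0.0152), and these and MVK with dim probesets left out or 1 probeset per gene, where fewer probesets enter the adjustment. With 1 array left out, the direction changed in 6 uncalled genes near 0, whose log2 fold changes ranged from -0.0773 to 0.0001 for ACAT2, -0.0242 to 0.0234 for PMVK, -0.0743 to 0.0188 for TM7SF2, -0.0281 to 0.0203 for SCAP, -0.0250 to 0.0487 for LPIN3 and -0.0101 to 0.0049 for ACLY.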
